A study of Homo sapiens with 18 samples.

Results

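The replication-dependent histone genes encode the core histones H2A, H2B, H3 and H4 and the linker histone H1 that package newly copied DNA. Their members here were all symbols of the table that name a gene of the HIST1, HIST2, HIST3 or HIST4 cluster for one of these 5 histone types, without pseudogenes and with a mean of at least 1 TPM (a transcript level per length, scaled to the same total in every library) over the 18 libraries. The table held 71 such symbols among 45372. After 1 pseudogene and 6 genes under the limit were left out, 64 members remained, namely 6 for H1, 16 for H2A, 17 for H2B, 12 for H3 and 13 for H4. RNA was sequenced from MV4-11 and THP1, established human acute myeloid leukaemia lines that both carry a rearrangement of KMT2A. Cells were treated with the vehicle DMSO, with 50 nM IACS-010759 (IACS, an inhibitor of mitochondrial complex I) for 8 h, or with the same dose for 24 h, with 3 libraries per group. No genetic change was made to either line, each group is a cell population of 1 line, and the sources used here do not give the time at which a DMSO library was taken. The replicates were described as independent. P-values refer to the spread between libraries within groups, pooled over all groups of a fit.

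As background, replication-dependent histone genes are transcribed mainly in S phase, when NPAT and its partners act at the clusters, and their mRNAs are unusual among human mRNAs in that most end in a conserved stem-loop and not in a poly(A) tail. SLBP binds the stem-loop and carries the mRNA through 3′-end processing, translation and its rapid decay at the end of S phase. Replacement histones such as H3.3 are made by separate, polyadenylated genes throughout the cell cycle. Most replication-dependent genes stand in clusters, and many H2A genes share a short promoter with an H2B gene that is read in the opposite direction.

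By RefSeq (GRCh38.p14), 50 members lay in HIST1 at chr6:26017032-27893891, 11 in HIST2 at chr1:149782689-149887965, 2 in HIST3 at chr1:228457364-228458558 and 1, HIST4H4, at chr12:14770720-14771131. All 6 H1 members were in HIST1. A 16-base stem-loop was sought in the 150 bases after the stop codon, with 6 pairs around a 4-base loop and at most 1 unpaired position. The search also required a start of GG and a loop beginning TTT, so the stem-loops share these letters by design. A stem-loop of this form was found in 61 of the 64 members. It lay between 23 and 68 bases after the stop codon (median 37). The 61 stem-loops had 7 sequences, and 59 had all 6 pairs. The following ones are shown because they separate the members by type and cluster, with the loop in capitals and the stem in lower case, 5′ to 3′ on the strand of the gene (GRCh38).
HIST1H3B, chr6:26031597-26031612, minus strand, shared by 37 members of H1, H2A, H2B and H3: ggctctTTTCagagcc
HIST1H4J, chr6:27824459-27824474, plus strand, shared by 9 members, all H4: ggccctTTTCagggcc
HIST1H2BK, chr6:27146366-27146381, minus strand, shared by 9 members of H1, H2A, H2B and H3: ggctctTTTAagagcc
HIST2H4A, chr1:149833032-149833047, plus strand, shared by 3 members, all H4: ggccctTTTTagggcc
HIST1H2AK, chr6:27837885-27837900, minus strand, found in 1 member: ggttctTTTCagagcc
The 12 H4 stem-loops thus began ggccct, and those of the other types did not. In 3 members (HIST1H2BI, HIST1H3E and HIST1H4L) no 16 bases of this form were found in that window, and stem-loops with another start or loop were not sought.

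Many core histone members were close copies of each other. Coding sequences were compared base by base from the start codon, without gaps. By this measure the H1 members shared 30.5% to 67.4% with their closest member. Their coding sequences differ in length (621 to 678 bases), so these values can understate their likeness, and H1 is not set against the core types. The 13 H4 members encode 1 protein, 9 of the 12 H3 members encode 1 protein, and the 16 H2A and 17 H2B members encode 10 and 13 proteins, whereas the 6 H1 members encode 6. HIST2H2AA3 and HIST2H2AA4, HIST2H3A and HIST2H3C, and HIST2H4A and HIST2H4B had identical coding sequences, and HIST2H3D shared 97.1% with HIST2H3C. The levels of such copies depend on how reads that match both are divided. HIST1H4K, whose coding sequence is identical to that of HIST1H4J, was listed at 0 in all libraries while HIST1H4J was among the highest members. HIST2H4B had a mean of 3.86 TPM beside 710 TPM for HIST2H4A. HIST1H2AD lies inside the span of HIST1H3D on the same strand, and HIST1H3D was listed at 0. Values of these genes are therefore uncertain as levels of a single gene.

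Of the 6 genes under the limit, HIST3H3 had a mean of 0.0102 TPM and the other 5 (HIST1H2AA, HIST1H2BA, HIST1H3D, HIST1H4G and HIST1H4K) were listed at 0. The members just above it were HIST1H3E with 1.07 TPM, HIST1H1T with 1.34 TPM and HIST1H1A with 1.84 TPM, each of which passed through 1 of the lines. A value of 1 TPM for an mRNA of 500 bases rests on about 4.35 to 7.01 fragments per library, and 100 TPM on 435 to 701, so that counting error is small for all but these lowest members. The myeloid genes CD33, SPI1, LYZ and CSF1R and the leukaemia gene HOXA9 were expressed in both lines, CD14 was at most 0.528 TPM, and CD3E, CD3D, GATA1 and HBB were at most 0.281 TPM. The library kit named in the methods selects poly(A) RNA, yet the members held 1.19% to 3.22% of all TPM and 5 noncoding RNAs held 39.6% to 60.1%. What part of the histone signal came from mRNAs with a poly(A) tail cannot be told from these values.

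The highest members came from all 5 types. HIST2H2AA4 had a mean of 1413 TPM over the 18 libraries and HIST2H2AA3 877 TPM, both H2A, followed in that type by HIST1H2AI with 609 TPM. For H4 the leading members were HIST1H4J with 1257 TPM, HIST2H4A with 710 TPM and HIST1H4C with 446 TPM. HIST1H3B (1077 TPM), HIST1H3C (708 TPM) and HIST1H3F (420 TPM) led H3, and the linker histones HIST1H1E (879 TPM), HIST1H1B (727 TPM) and HIST1H1C (694 TPM) led H1. The H2B members were more even, with HIST1H2BK at 645 TPM, HIST1H2BC at 422 TPM and HIST1H2BO at 397 TPM. In MV4-11 treated with DMSO, H2A genes gave 25.6% ± 0.405 of the histone TPM (SD, n = 3), H4 21.0% ± 0.590, H2B 20.7% ± 0.307, H3 20.1% ± 0.429 and H1 12.6% ± 0.284.

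The comparison of the cell lines, made among the DMSO libraries, asks whether untreated MV4-11 and THP1 use the same histone genes. Most histone genes of the HIST1 cluster were called lower in THP1, while none of HIST2 or HIST3 was, and 3 of HIST2 and both of HIST3 were called higher. With limma over 14117 genes, a call needed an adjusted p under 0.05 and a fold change over 1.5. Of the 64 members, 38 were called lower in THP1 (59.4%), where 17.2% of all genes tested were, and 7 were called higher (10.9%), against 19.7% of all genes. The median log2 fold change of the members was -0.78, beside 0.01 over all genes tested. In HIST1, 37 of 50 members were called lower, 2 higher and 11 neither, with a median of -0.88. These counts, and those over the 64 members, include HIST1H1A and HIST1H3E as lower and HIST1H1T as higher. Each became a member only through the line where it is higher, so its call is in part set by the level limit. In HIST2, 0 of 11 were called lower and 3 higher (27.3%, beside 19.7% of all genes), all 11 had a log2 fold change above 0, and the median was 0.42. Both HIST3 members were called higher, and HIST4H4 was called lower (-0.75).

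**Figure D1:**
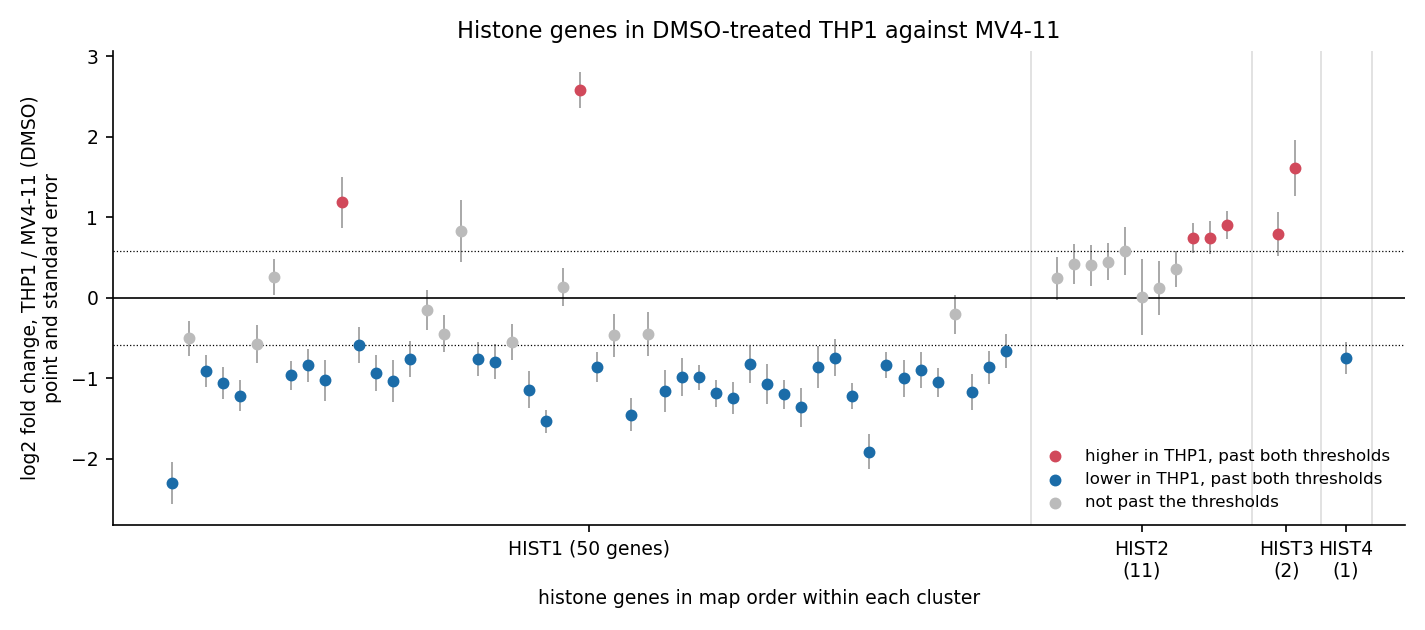
Log2 fold change between DMSO-treated THP1 and MV4-11 (vertical axis, points with standard errors, limma, 3 libraries per line) for the 64 histone genes in map order within each cluster (horizontal axis). Dotted lines mark a fold of 1.5. HIST1 genes mostly sit below 0 (37 of 50 called lower), and all 11 HIST2 genes and both HIST3 genes sit above it.

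The split followed the cluster within each core histone type. The median log2 fold change was -0.93 for the 11 H2A members of HIST1 and 0.66 for the 4 of HIST2. For H2B it was -0.70 over 14 members of HIST1 and 0.49 over 2 of HIST2, for H3 -1.17 over 9 and 0.42 over 3, and for H4 -0.97 over 10 and 0.21 over 2. Over all members of a type in any cluster, the medians of the types lay between -0.59 (H2B) and -1.01 (H3).

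Among the members called higher in THP1, HIST1H4F, one of the genes for the shared H4 protein, had the largest difference. Its level was 44.4, 50.0 and 51.8 TPM in the DMSO libraries of MV4-11 and 324, 325 and 242 TPM in those of THP1. All 3 THP1 libraries stood above all 3 MV4-11 libraries, with a log2 fold change of 2.57 ± 0.22 (SE) and an adjusted p of 1.4e-08 by limma. The gene lies among HIST1 members that were lower in THP1. HIST3H2BB, the H2B gene of HIST3, had 17.4, 22.1 and 25.0 TPM in MV4-11 and 79.7, 80.4 and 47.5 TPM in THP1 (log2 fold change 1.61 ± 0.35, adjusted p = 0.000729, limma). HIST3H2A, its H2A partner, had 23, 26.5 and 30.6 TPM in MV4-11 and 56.4, 59.4 and 30.3 TPM in THP1 (0.79 ± 0.27). These groups overlapped, since replicate 3 of THP1 lay below replicate 3 of MV4-11, and the call was lost when replicate 1 or 2 of THP1 or replicate 1 of MV4-11 was left out.

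In HIST2, HIST2H2AB, HIST2H2AC and HIST2H2BE were called higher. HIST2H2AB, an H2A gene, had 292, 319 and 268 TPM in MV4-11 and 569, 602 and 481 TPM in THP1, without overlap (log2 fold change 0.91 ± 0.17). HIST2H2AC and HIST2H2BE, which share a promoter, differed by almost the same amount (0.74 ± 0.20 and 0.74 ± 0.19). HIST1H1T, a linker histone known from the testis, was low in both lines, at 0.539, 0.606 and 0.640 TPM in MV4-11 and 2.72, 4.47 and 1.35 TPM in THP1 (1.19 ± 0.32 on the log2(TPM + 1) scale).

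The members called lower in THP1 included the leading genes of most types. HIST1H4J had 1708, 1932 and 1939 TPM in MV4-11 and 805, 919 and 683 TPM in THP1. HIST1H3B, an H3 gene, had 1431, 1760 and 1596 TPM in MV4-11 and 780, 750 and 549 TPM in THP1. HIST1H1E, a main somatic linker histone, had 1170, 1243 and 1189 TPM in MV4-11 and 640, 658 and 479 TPM in THP1. In each of these the lines did not overlap, and the log2 fold changes were -1.22 ± 0.16, -1.21 ± 0.19 and -1.03 ± 0.26.

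By size, the 5 members with the largest fall in THP1 were HIST1H1A, HIST1H2AK, HIST1H3E, HIST1H3G and HIST1H3H. HIST1H1A, a linker histone gene, had 4.33, 3.23 and 5.09 TPM in MV4-11 and was listed at 0, 0.160 and 0 TPM in THP1. HIST1H3E had 2.17, 2.05 and 1.83 TPM in MV4-11 and 0.0429, 0.0772 and 0 TPM in THP1. The size of a fold against such values depends on the pseudocount, and both genes became members through MV4-11 alone. HIST1H2AK, an H2A gene and the only member whose stem-loop begins ggttct, had 152, 166 and 150 TPM in MV4-11 and 45.3, 51.9 and 28.8 TPM in THP1 (-1.91 ± 0.22). HIST1H3G (-1.45 ± 0.21) and HIST1H3H (-1.36 ± 0.24) also fell without overlap of the lines, HIST1H3H from 330, 409 and 389 TPM to 160, 164 and 117 TPM.

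As a share of all histone TPM, which does not depend on the scaling of a library, HIST2 genes gave 17.8%, 18.6% and 18.6% in the DMSO libraries of MV4-11 and 36.04%, 35.9% and 34.1% in those of THP1. Over all conditions the share ranged from 17.2% to 18.6% in the 9 MV4-11 libraries and from 33.3% to 37.0% in the 9 THP1 libraries, so the lines were far apart and the treatments were not. Within types, HIST2 supplied 39.6% ± 0.348 of H2A mRNA in MV4-11 and 63.2% ± 1.44 in THP1 (SD, n = 3, DMSO). In the same order it supplied 19.7% ± 0.460 and 40.8% ± 1.63 of H3, 11.7% ± 0.394 and 23.2% ± 0.499 of H4, and 8.68% ± 0.191 and 17.4% ± 0.333 of H2B.

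**Figure D2:**
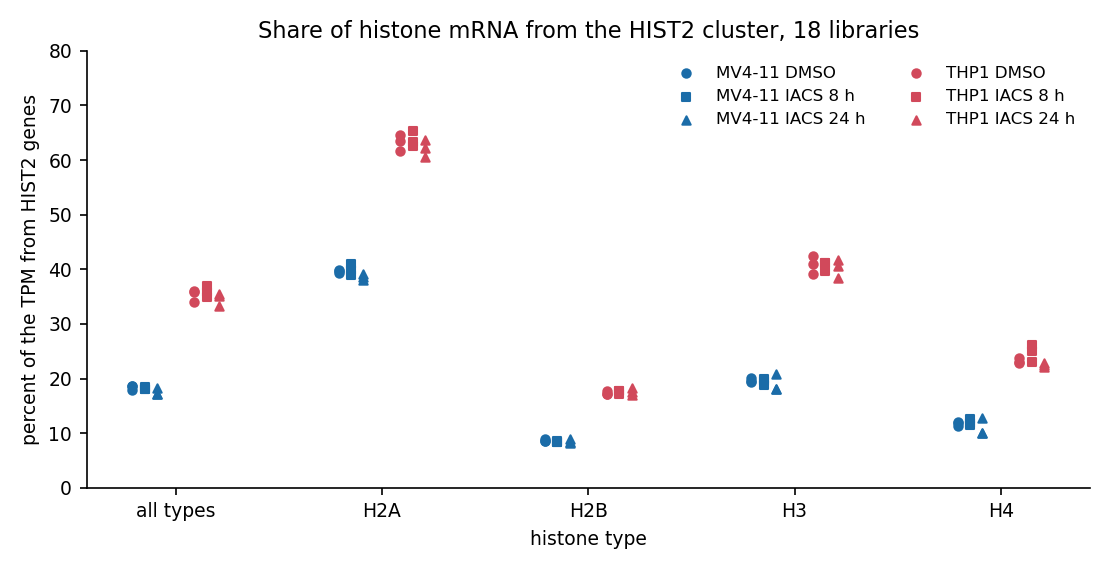
Percent of the histone TPM that came from HIST2 genes (vertical axis), over all histone types and within H2A, H2B, H3 and H4 (horizontal axis). Each symbol is 1 of the 18 libraries. For every type the THP1 libraries lie above the MV4-11 libraries, and over all types they lie at 33.3% to 37.0% against 17.2% to 18.6%.

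Other genes around the clusters differed between the lines in the direction of the cluster. In the 500 kb on either side of HIST1 and within it, 23 genes that encode no histone were tested, with 12 lower and 2 higher in THP1 and a median of -0.68. Around HIST2, 11 of 17 such genes were higher and 1 lower (median 0.72), and around HIST3 7 of 10 were higher and 0 lower (median 0.98). On chromosome 1 as a whole 43.5% of 1269 genes were called higher and 6.62% lower (median 0.49). On chromosome 6 as a whole 17.0% of 594 genes were called lower and 40.7% higher (median 0.43). With IACS at 24 h, 14 of 23 genes around HIST1 were lower, beside 20.7% of chromosome 6. Around HIST2 5 of 17 were higher, beside 34.1% of chromosome 1. On chromosome 6 the lower levels reached beyond the histone genes. In the 10 Mb before HIST1, 18 of 21 genes were below 0 (median -0.70), in the 2 Mb after it 14 of 15 were (median -0.76), and from 4 to 10 Mb after it 70 of 85 were above 0 (median 0.51). HMGN4, a nucleosome-binding protein gene inside HIST1, fell by 1.37, and the zinc finger gene ZSCAN16 fell by 2.43, whereas TRIM38, at the start of the cluster, had 0.12 and CARMIL1 0.76 (these 4 were chosen after their values were seen). The 3 groups of genes within HIST1, split at gaps over 400 kb, had medians of -0.78 (30 members), -0.99 (5 members) and -0.997 (15 members) from the start of the cluster to its end. Copy number was not measured here, and the part of position in these differences was not tested.

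**Figure D3:**
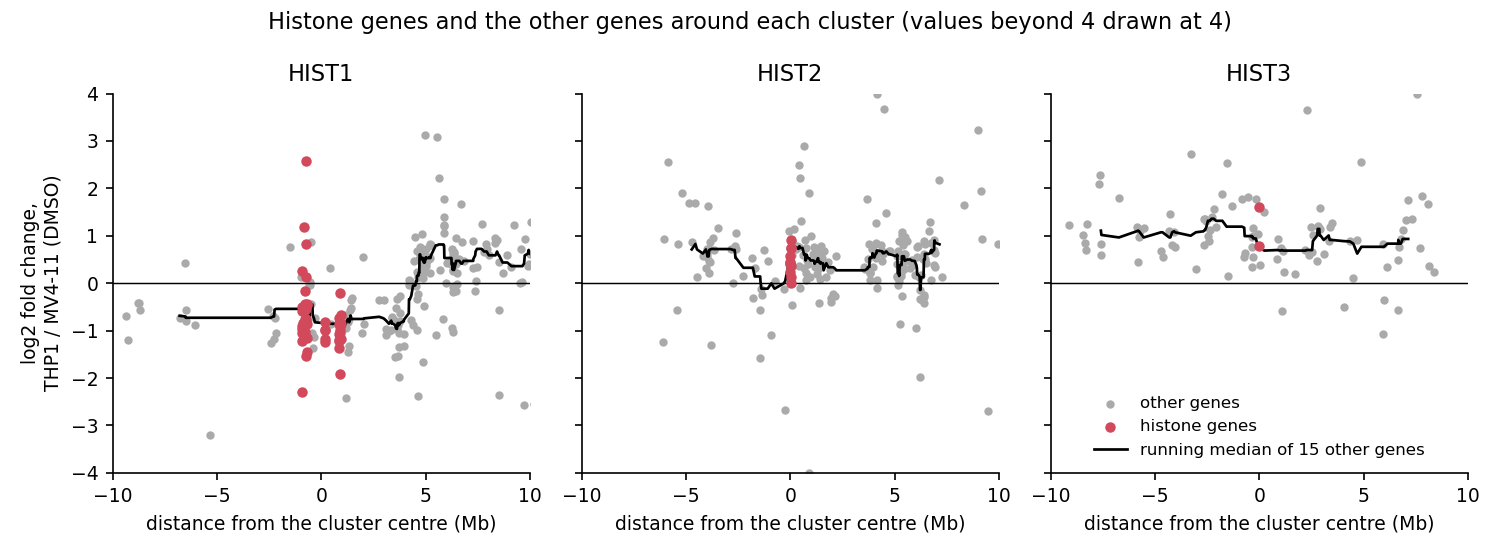
Log2 fold change between DMSO-treated THP1 and MV4-11 (vertical axis) for histone genes (red) and all other tested genes (grey) against their distance from the centre of HIST1, HIST2 or HIST3 in Mb (horizontal axis). The black line is the running median of 15 other genes. Around HIST1 it lies below 0 from its left end to about 4 Mb right of the centre, and around HIST3 it lies above 0 throughout.

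The promoters of the members, taken from RefSeq as the 250 bases before and 50 after the start of 59 members, were searched on both strands for TATAAA, for CCAAT and for the octamer ATTTGCAT. CCAAT was present in all promoters of H1, H2A, H2B and H3 members and in 27.3% of the 11 H4 promoters, beside 34.6% of all 35116 promoters. The octamer was present in 66.7% of the 15 H2A and 76.5% of the 17 H2B promoters, in 0 of the others, and in 1.77% of all promoters. TATAAA was found in 64.4% of the members and in 11.5% of all promoters. Since paired H2A and H2B genes share much of this window, their counts are not independent. The promoters below belong to the HIST1 pair with the highest summed level, to the HIST3 pair and to HIST1H4F, whose differences between the lines had opposite directions, and matches to the 3 motifs are in capitals.
HIST1H2BK, chr6:27146809-27147108, minus strand, shared with HIST1H2AH: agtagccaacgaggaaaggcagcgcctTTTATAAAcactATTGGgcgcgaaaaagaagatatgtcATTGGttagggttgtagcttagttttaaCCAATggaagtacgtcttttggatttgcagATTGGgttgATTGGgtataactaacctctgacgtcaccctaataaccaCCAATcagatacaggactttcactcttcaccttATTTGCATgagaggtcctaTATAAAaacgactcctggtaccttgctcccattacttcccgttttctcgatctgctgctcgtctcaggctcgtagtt
HIST3H2BB, chr1:228457853-228458152, plus strand, shared with HIST3H2A: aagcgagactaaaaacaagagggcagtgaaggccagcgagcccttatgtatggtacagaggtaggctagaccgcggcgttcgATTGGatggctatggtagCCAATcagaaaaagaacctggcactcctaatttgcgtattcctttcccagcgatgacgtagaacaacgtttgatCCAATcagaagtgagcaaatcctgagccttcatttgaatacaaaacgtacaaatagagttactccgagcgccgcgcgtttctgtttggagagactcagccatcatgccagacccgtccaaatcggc
HIST1H4F, chr6:26240143-26240442, plus strand: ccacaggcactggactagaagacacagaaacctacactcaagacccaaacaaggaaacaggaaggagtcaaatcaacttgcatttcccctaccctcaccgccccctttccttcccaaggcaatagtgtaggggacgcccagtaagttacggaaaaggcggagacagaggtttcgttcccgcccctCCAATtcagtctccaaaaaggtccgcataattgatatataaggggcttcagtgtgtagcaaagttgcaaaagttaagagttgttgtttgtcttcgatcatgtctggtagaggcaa
The HIST1H2BK window held 3 TATAAA (2 of them overlapping on opposite strands), 6 CCAAT and 1 octamer match. The HIST3H2BB window held 3 CCAAT matches, and the HIST1H4F window held 1.

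Genes that share a promoter could be compared directly. The members held 11 divergent pairs of an H2A and an H2B gene with start sites 194 to 248 bases apart. In 10 of them both genes differed between the lines in the same direction, in 9 both were called, and the median gap between the log2 fold changes of a pair was 0.35. In HIST1, 43 of 50 members had all THP1 libraries below all MV4-11 libraries with DMSO. The share of all genes without such overlap is not given here. All 11 HIST2 members were above 0, where the median of all genes tested was 0.01. Of these, HIST2H4B (0.01) and HIST2H2AA4 (0.12) lay close to that median. Members of a cluster thus mostly shared a direction, paired or not, and whether pairs were more alike than that was not tested. HIST1H2BJ and HIST1H2AG (-0.98 and -0.99) were almost equal, as were the HIST2 pair above. HIST1H2AK and HIST1H2BN were further apart (-1.91 and -0.84). The pair with opposite signs was HIST1H2AD (0.83, not called) and HIST1H2BF (-0.76), and the overlap of HIST1H2AD with HIST1H3D noted above applies to it.

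The lines were also compared with IACS, on libraries whose levels did not enter the fold changes above. The errors come from the same fit of 18 libraries, so the comparisons are not fully separate. At 8 h, 36 members were called lower in THP1 (25% of all genes tested were) and 9 higher (15.2% of all genes). At 24 h, 40 were called lower (27.2% of all genes) and 4 higher (15.6% of all genes). The median of all genes was -0.18 and -0.20 in these comparisons as deposited, and it was 0.00 and -0.01 after median-of-ratios scaling, which gave 26 lower and 14 higher at 8 h and 37 lower and 8 higher at 24 h. The shares of all genes called under that scaling are not given here. In HIST1, 35 of 50 members were called lower at 8 h and 39 at 24 h. In HIST2, 0 of 11 were called lower at either time, and 5 were called higher at 8 h and 1 at 24 h, with values from -0.09 to 0.69 at 24 h. HIST3H2BB was called higher at both times and HIST3H2A at 8 h, with 0.38 ± 0.27 at 24 h. As deposited, 36 members were called lower in all 3 conditions and 3 were called higher (HIST1H4F, HIST3H2BB and HIST2H2AB), while 0 members were called in opposite directions. The share of all genes called in all 3 conditions is not given here, and the 3 comparisons share 1 fit. With 26 lower at 8 h after median-of-ratios scaling, fewer than 36 could be lower in all 3 under that scaling. The log2 fold change of HIST1H4F was 2.43 ± 0.22 at 8 h and 2.20 ± 0.22 at 24 h. HIST1H2AD, not called in DMSO, was called higher at 8 h (0.94) and at 24 h (1.35), and HIST2H2AA3 was called higher at 8 h (1.06) and not in the other conditions, while the interaction for 8 h was not called (0.48 ± 0.42). Leaving out replicate 3 of THP1 at 8 h left 22 lower and 15 higher at that time.

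The replication and histone-processing genes did not follow the HIST1 genes as a group. Of 20 genes for the transcription and processing of histone mRNA, 2 were called higher in THP1 with DMSO (CASP8AP2, which encodes FLASH, 0.98, and the cyclin gene CCNE2, 0.69) and 2 lower (the decay helicase UPF1, -0.63, and ZNF473, a U7 snRNP-binding protein gene, -0.62), with a median of 0.10. NPAT had 15.8 ± 2.48 TPM in MV4-11 and 17.0 ± 2.85 TPM in THP1 (SD, n = 3, log2 fold change 0.10 ± 0.16), and SLBP 112 ± 4.51 TPM and 115 ± 12.5 TPM (0.04 ± 0.15), and neither was called. Of 20 S-phase genes 4 were called higher (among them MCM3 1.03, TYMS 0.64 and TK1 0.60) and 2 lower (PCNA -1.56 and UHRF1 -0.73), with a median of 0.00. None of 15 histone chaperones was called by limma, with 4 at an unadjusted p under 0.05. Of 11 replacement histones, the linker histone H1F0 was higher in THP1 (3.08, from 9.32 ± 0.742 to 87.4 ± 16.1 TPM), H3F3A, which encodes H3.3, was higher (0.89), and H2AFJ was lower (-0.90).

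The treatment comparisons ask whether inhibition of complex I changes histone mRNA. Most members had log2 fold changes below 0 with IACS in both lines, and 0 members were called by limma at either time in either line. In MV4-11 at 8 h and THP1 at 24 h, all IACS libraries lay below all DMSO libraries in a larger share of members than of all genes. At the other time of each line they did not. In THP1 the values at 8 h lay around those of all genes. After median-of-ratios scaling, the median of the members was -0.25 at 8 h and -0.23 at 24 h in MV4-11, and 0.01 at 8 h and -0.17 at 24 h in THP1, so that its sign at 8 h in THP1 depended on the scaling. In a bulk library, fewer cells in S phase and less histone mRNA per cell cannot be told apart. The 8 h and 24 h groups of a line share its DMSO libraries, so their values are given side by side and are not independent.

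The summed histone level showed the spread. In MV4-11 the 64 members summed to 24741, 28700 and 26874 TPM in the DMSO libraries, to 21845, 20931 and 27203 TPM at 8 h, and to 21741, 19881 and 32190 TPM at 24 h. Replicates 1 and 2 were thus lower with IACS than any DMSO library, and replicate 3 was higher than its DMSO library at both times. At 8 h this depended on the scaling, since after median-of-ratios scaling replicate 3 changed by -22.3% and all 3 libraries lay below all DMSO libraries. In THP1 the sums were 20629, 21427 and 14663 TPM with DMSO, 20008, 20732 and 11917 TPM at 8 h, and 16467, 15335 and 14112 TPM at 24 h. Here replicate 3 was the lowest library of each group. Set against the DMSO library of the same replicate number, the histone sum of MV4-11 changed by -12.1%, -30.7% and 19.8% at 24 h, and that of THP1 by -20.2%, -28.4% and -3.76%. After median-of-ratios scaling these changes were -14.8%, -34.6% and 9.30% in MV4-11 and -3.26%, -28.1% and 6.17% in THP1, so that in THP1 only replicate 2 kept a large fall and replicate 3 changed sign. The sum of the 20 S-phase genes moved by -21.1%, -26.0% and 8.01% in the same MV4-11 libraries and by -28.2%, -20.4% and -20.8% in those of THP1, and its part in the histone changes was not tested.

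**Figure D4:**
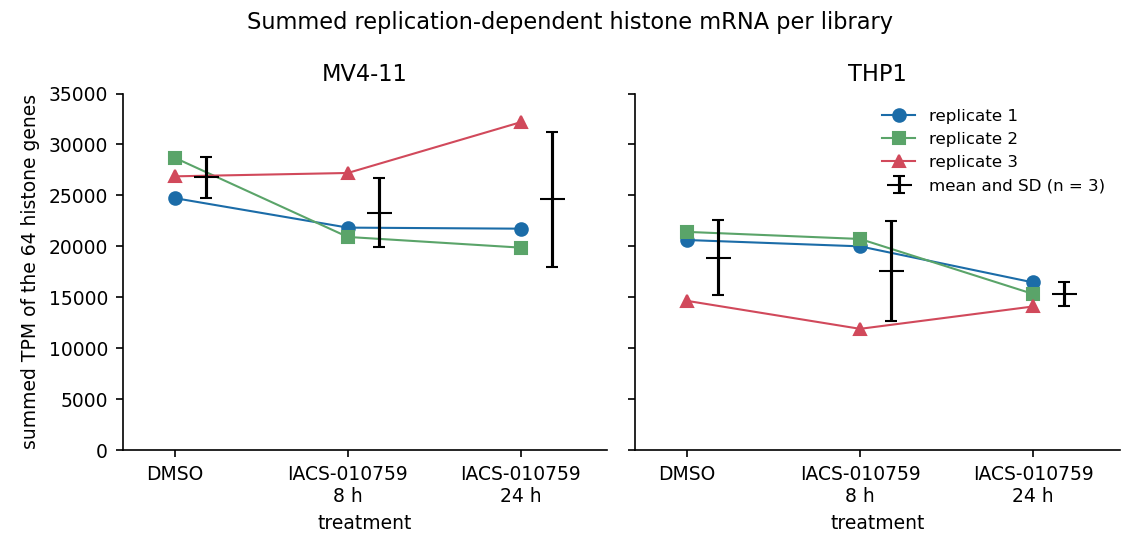
Summed TPM of the 64 histone genes (vertical axis) in each library of MV4-11 and THP1 by treatment (horizontal axis). Lines join libraries with the same replicate number, and black bars give the mean and SD of 3 libraries. Replicate 3 of MV4-11 rises to 32190 TPM at 24 h while replicates 1 and 2 fall to 21741 and 19881 TPM, and replicate 3 of THP1 is the lowest of each group.

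In MV4-11, 63 members were tested among 13542 genes, since HIST1H1T was under 1 TPM. At 8 h, 0 members were called (0.0148% of all genes were), 4 had an unadjusted p under 0.05 (4.39% of all genes) and 0 were past it with the fold limit by Dunn's test. In 7 members all 3 IACS libraries lay below all 3 DMSO libraries (11.1%, beside 1.65% of all genes). The median of the members was -0.18, beside 0.06 over all genes tested, and 61 members were below 0, beside 33.1% of all genes. At 24 h, 0 were called (0.0886% of all genes were), 6 had an unadjusted p under 0.05 (12% of all genes), and 1 passed Dunn's test unadjusted. All 3 IACS libraries lay below all 3 DMSO libraries in 3 members (4.76%, beside 5.26% of all genes). The median was -0.15, beside 0.08 over all genes tested, and leaving out 1 library moved it between -0.36 and -0.0015. Between 24 h and 8 h, 0 members were called (0% of all genes were), 1 had an unadjusted p under 0.05 (2.3% of all genes) and 0 passed Dunn's test.

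HIST1H2AB, an H2A gene of HIST1, had the lowest log2 fold change in MV4-11 at 24 h. Its level was 189, 223 and 191 TPM with DMSO, 135, 125 and 170 TPM at 8 h, and 124, 102 and 156 TPM at 24 h. All IACS libraries lay below all DMSO libraries at both times. The log2 fold change was -0.49 ± 0.17 at 8 h and -0.67 ± 0.17 at 24 h, with an adjusted p of 0.145 at 24 h by limma, and the gene was called after median-of-ratios scaling (adjusted p = 0.045, limma). HIST1H2AD had the lowest value at 8 h (-0.82 ± 0.42), from 15.8, 21.3 and 25.9 TPM to 14.2, 13.8 and 7.09 TPM, and the 3 libraries at 24 h held 11.2, 6.27 and 30.1 TPM. The largest value above 0 at 24 h was that of HIST1H2BN (0.21 ± 0.12), from 49.3, 57.9 and 47.4 TPM to 57.4, 57.4 and 64.3 TPM, and at 8 h it was that of HIST1H2AC (0.00 ± 0.22). The DMSO and 24 h libraries of HIST1H2BN overlapped. Between 24 h and 8 h HIST1H2BN had the highest value (0.36 ± 0.12), its 8 h libraries at 43.9, 42.9 and 52.4 TPM lying below those at 24 h, and HIST3H2BB had the lowest (-0.22 ± 0.33). None of these differences was called.

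Without the 3 libraries of MV4-11 with replicate number 3, a choice made after these sums were seen, 5 members were called lower at 8 h (HIST1H2AB, HIST1H2BB, HIST1H2BG, HIST1H2BM and HIST1H4L), where 0.295% of all genes were. At 24 h 11 were called lower, where 0.606% of all genes were, among them HIST1H2AB (-0.86), HIST1H3A (-0.84) and HIST1H3J (-0.78). With only replicate 3 of the 24 h group left out, 3 were called lower at 24 h (HIST1H3A, HIST1H2AB and HIST1H3J), where 0.118% of all genes were.

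In THP1, 62 members were tested among 13928 genes, without HIST1H1A and HIST1H3E. At 8 h, 0 were called (0.0144% of all genes were), 1 had an unadjusted p under 0.05 (2.11% of all genes), 0 passed Dunn's test, and in 1 member all IACS libraries lay below all DMSO libraries (4.06% of all genes). The median of -0.14 was close to that of all genes tested (-0.12). At 24 h, 0 were called (0.0431% of all genes were), 8 had an unadjusted p under 0.05 (8.61% of all genes), 2 passed Dunn's test, and in 10 members the IACS libraries all lay below the DMSO libraries (16.1%, beside 10.2% of all genes). The median was -0.31, beside -0.12 over all genes tested, and all 62 members were below 0, beside 72.8% of all genes. Between 24 h and 8 h, 0 were called (0.00718% of all genes were), 3 had an unadjusted p under 0.05 (4.99% of all genes) and 1 passed Dunn's test.

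Both HIST3 genes were among the 3 lowest members of THP1 at 24 h, HIST3H2BB the lowest. HIST3H2BB had 79.7, 80.4 and 47.5 TPM with DMSO, 72.1, 77.5 and 35.9 TPM at 8 h, and 45.8, 37.5 and 31.7 TPM at 24 h. HIST3H2A had 56.4, 59.4 and 30.3 TPM with DMSO and 34.6, 28.1 and 27.9 TPM at 24 h. For HIST3H2BB all 24 h libraries lay below all DMSO libraries, and for HIST3H2A replicate 1 at 24 h lay above replicate 3 with DMSO. The log2 fold changes at 24 h were -0.81 ± 0.28 and -0.62 ± 0.29, with adjusted p of 0.506 and 0.578 by limma. In THP1 the DMSO and 24 h libraries of the same replicate number passed the limit for pairing given below, which does not establish pairing. With the replicate as a block HIST3H2BB (adjusted p = 0.00466), HIST3H2A (0.0261) and HIST1H3A (0.0119) were called lower at 24 h by limma, where 1.73% of all genes were called lower. With the block and median-of-ratios scaling together only HIST3H2BB of these was called (-0.67, adjusted p = 0.0265, limma), where 0.636% of all genes were called lower. The same limit was passed between 8 h and 24 h, where HIST3H2BB was called with the block (-0.61, adjusted p = 0.0311, limma), as were 0.373% of all genes in that direction.

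HIST1H3A, an H3 gene near the start of HIST1, had 90.9, 102 and 70.9 TPM with DMSO and 57.9, 57.0 and 56.2 TPM at 24 h, without overlap (-0.60 ± 0.19). The smallest change at 24 h among members of at least 5 TPM was that of HIST1H1C (-0.06 ± 0.22). At 8 h the lowest value was that of HIST1H2AD (-0.71 ± 0.24), from 29.8, 53.2 and 32.6 TPM to 29.0, 22.6 and 17.2 TPM, with 32.8, 30.6 and 41.9 TPM at 24 h. Its log2 fold change of 0.61 ± 0.24 between 24 h and 8 h was the highest there and was not called. HIST2H2AA3 had the largest value above 0 at 8 h (0.27 ± 0.26), with 824, 1252 and 1155 TPM in DMSO and 1613, 1548 and 841 TPM at 8 h. Its copy HIST2H2AA4 had a value below 0 (-0.33 ± 0.36), with 2447, 2100 and 836 TPM in DMSO and 1646, 1572 and 844 TPM at 8 h.

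**Figure D5:**
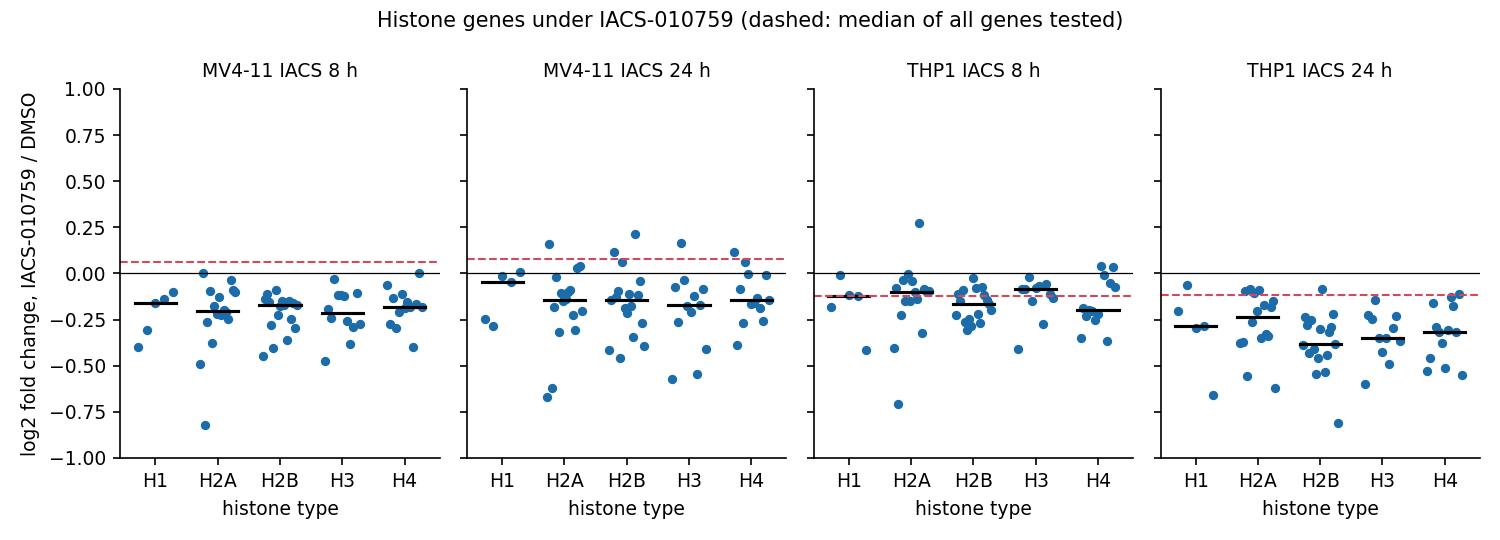
Log2 fold change between IACS and DMSO (vertical axis) for each histone gene tested, by histone type (horizontal axis), in the 4 comparisons. Black bars are the medians of a type, and the dashed line is the median of all genes tested. The type medians lie below the dashed line in every panel except THP1 at 8 h.

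Under IACS the medians of the types and of the large clusters were close to each other. In MV4-11 at 24 h the medians of the types lay between -0.05 (H1) and -0.17 (H3), and HIST1 (-0.14) and HIST2 (-0.17) were close. In THP1 at 24 h the type medians lay between -0.24 (H2A) and -0.38 (H2B), with HIST1 at -0.30, HIST2 at -0.30 and the HIST3 pair at -0.72. GENCODE holds a transcript that runs more than 100 bases past the stem-loop for 15 of the 61 members with a stem-loop. Their median was -0.15 in MV4-11 and -0.37 in THP1 at 24 h, beside -0.14 and -0.30 for the other 46. The 7 members listed as polyadenylated from general knowledge had medians of -0.04 and -0.24, and 0 of them were called by limma at either time, with 0 at an unadjusted p under 0.05 and 0 by Dunn's test. Between the lines with DMSO, 6 of them were called lower in THP1 and 1, HIST2H2BE, higher.

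The response to IACS was not shown to differ between the lines. As an interaction, 0 members were called at 8 h (0.00708% of all genes were) with 0 at an unadjusted p under 0.05 (3.16% of all genes), and 0 at 24 h (0.00708% of all genes) with 2 at an unadjusted p under 0.05 (7.1% of all genes). Dunn's test was not run for the interactions. Among the lists, 0 of 20 genes of histone mRNA transcription and processing, 0 of 20 S-phase genes, 0 of 15 chaperones and 0 of 11 replacement histones were called by limma in any treatment comparison. At an unadjusted p under 0.05, 3 of the 20 S-phase genes were lower in MV4-11 at 8 h (0.997% of all genes) and 4 at 24 h (2.36%), and in THP1 2 were lower at 8 h (1.86%) and 12 at 24 h (7.12%). Of the 20 processing genes 0 were lower in MV4-11, and 1 at 8 h and 5 at 24 h were lower in THP1. In MV4-11 SLBP went from 111.8 ± 4.51 TPM in the vehicle group to 96.3 ± 15.5 TPM after 8 h of IACS and 92.1 ± 16.02 TPM after 24 h. In THP1 its mean levels were 115.2 ± 12.5, 94.0 ± 14.6 and 89.0 ± 8.21 TPM (SD, n = 3 per group). None of these differences was called, and neither were those of NPAT, whose group means lay between 14.7 and 17.0 TPM.

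Members varied together across the libraries of a line. Among 60 members of at least 5 TPM, the median correlation of a member with the sum of the others was 0.91 over the 9 libraries of MV4-11 and 0.95 over the 9 of THP1, where 52 and 58 members were over 0.8. The lowest were HIST1H3I in MV4-11 (0.45) and HIST1H2AD in THP1 (0.34). These libraries share their total of TPM and in part their treatment, so the correlations are a description. The histone sum correlated with the sum of S-phase genes at 0.92 and 0.89, and with the share of the 5 noncoding RNAs at -0.60 and -0.83.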

How the data were processed

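RNA of 18 libraries (6 groups of 3) was analysed. The authors isolated RNA with a DNase step, prepared libraries with a TruSeq RNA v2 kit, sequenced paired-end reads and quantified them on GRCh38 with CLC Genomics Workbench 20 (submitters' notes and methods), and they deposited TPM per gene symbol. The annotation release and use of strand are not given in the sources used here. All columns were used (0 left out). TPM of a library have a fixed sum, so a larger share of 5 noncoding RNAs lowers all other genes.

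From the TPM, log2(TPM + 1) was fitted with limma 3.58.1 (R 4.3.3, lmFit and eBayes with a variance trend) over genes whose mean reached 1 TPM, in 1 fit of 9 libraries per line, and in 1 fit of 18 libraries for differences between lines and the interactions. P-values were adjusted by Benjamini-Hochberg over all genes tested, and a gene was called past 0.05 with a fold of 1.5 or more (0.585 on the log2 scale). Fold changes on this scale understate those of low genes. Dunn's test, the post hoc test of the methods, was an alternative within a line, unadjusted and with the same fold limit. The share of all genes that passed it is not given here, so its counts of members have no background. The fit was tested on simulated data. Depth was read from steps in low values, where 1 fragment was worth 0.0713 to 0.115 TPM per kb and 82.5% to 86.7% of values came out whole within 0.02 (4% by chance).

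Symbols were matched to RefSeq (GRCh38.p14) for coordinates and promoters (59 of 64 members had a promoter), and to GENCODE 44 for coding and transcript ends. Copies with identical coding sequence were kept apart and summed as an alternative. Named were the 3 highest members per type, called members (the 5 largest where more than 8), the largest rise and fall per treatment comparison among members of at least 5 TPM, those at the 1 TPM limit, close copies, called genes of the lists (1 is not reported here), SLBP and NPAT. Members and lists were chosen with earlier results of these data known, and the lists come from general knowledge. Whether replicate numbers pair libraries was checked by correlating deviations from group means. Only libraries of the same number were correlated, so the check has no reference from libraries of unlike number and does not establish pairing. Each pair was over 0.1 for THP1 DMSO and 24 h (0.146 to 0.324) and for THP1 8 h and 24 h (0.183 to 0.357), so the blocked values are given there. In MV4-11 8 h and 24 h it held only before median-of-ratios scaling (0.110 to 0.441, and 0.0887 to 0.423 after it), and no call changed there.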

Additional observations from a re-analysis of the deposited data

How the results depend on the processing

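No called member changed direction under any alternative run, and the count of calls under IACS depended on the setting. For MV4-11 at 24 h against DMSO (0 calls), 1 member was called after median-of-ratios scaling, without the 5 noncoding RNAs, with the replicate block, with the block and median-of-ratios scaling, at an unadjusted p and by Dunn's test, in each case HIST1H2AB, and leaving out 1 library gave 0 to 3. For THP1 at 24 h against DMSO (0 calls) the replicate block gave 3, the block with median-of-ratios scaling 1, the unadjusted p 2 and Dunn's test 2. THP1 at 24 h against 8 h (0 calls) gave 1 with either block, 2 at the unadjusted p and 1 by Dunn's test. The unadjusted p gave 1 for THP1 at 8 h and 1 for the interaction at 24 h. Without replicate number 3, MV4-11 had 5 calls at 8 h and 11 at 24 h, and the lines had 11 higher with DMSO, 20 lower and 15 higher at 8 h, and 10 higher at 24 h. Between the lines, median-of-ratios scaling gave 14 higher at 8 h and 8 at 24 h, and TPM without the noncoding RNAs 14 and 10. Leaving out 1 library gave 22 to 41 lower and 6 to 15 higher at 8 h, and 4 to 9 higher at 24 h. With DMSO, 34 to 41 were lower and 6 to 9 higher, and the median stayed between -0.88 and -0.63. Shares of all genes are given above for blocked fits of THP1 and for MV4-11 without replicate 3. For the other settings they are not given, so those counts have no background beside them. The replicate block changed no other call. It could not be fitted for the lines, which share no replicate, and Dunn's test was not run there. HIST3H2A, higher in THP1, lost its call without the filter on low values and without 1 of 3 libraries (0.62 to 0.70). The median of the members at 8 h in THP1 went from -0.30 to 0.11 as libraries were left out, so its sign rests on single libraries. It went from -0.33 to -0.11 in MV4-11 at 8 h, from -0.36 to -0.0015 at 24 h and from -0.46 to -0.20 in THP1 at 24 h. The cause of these shifts was not tested. TPM hold no read counts, so the precision of low members is known only from the steps in their values.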
